A study of Rattus norvegicus with 24 samples.

Results

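Gene expression in the shell of the nucleus accumbens (NAc) was compared with that in the ventral tegmental area (VTA) by RNA sequencing of the same 8 rats, with 1 library per rat from each region. The 16 libraries were those labelled as shell or VTA among 24 in the table, and the other 8 libraries, from the NAc core of the same rats, were used to see where the shell lay between its neighbour and the VTA. The rats were F1 males of crosses between the inbred strains Fischer-344 and Brown Norway, labelled A (4 rats) or B (4 rats). By the study's methods, the mother was Brown Norway in cross A and Fischer-344 in cross B. On 4 days, 4 rats were injected with nicotine at 0.4 mg/kg and 4 with saline, with 2 rats of each cross under each injection. Intravenous infusions of nicotine (30 µg/kg each) followed in all 8 rats over 6 days and tissue was taken on day 15, so that no rat was free of nicotine. Replicates are called by the number of the rat (1, 2, 11 and 15 in cross A, and 3, 4, 13 and 16 in cross B; rats 1 to 4 had nicotine injections).

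The NAc shell is a part of the ventral striatum whose principal cells are GABAergic medium spiny projection neurons. The VTA is a midbrain area with dopaminergic, GABAergic and glutamatergic neurons, and its dopaminergic axons innervate the shell as well as the core. Both regions belong to the circuit through which nicotine and natural rewards act.

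The shell libraries held 19146904 to 21680765 estimated counts, the VTA libraries 17856705 to 24405856 and the core libraries 17563458 to 20480697. Along the first principal component, which carried 53.8% of the variance of the 500 most variable genes, the shell libraries lay at 14.8 to 23.5, the core libraries at 21.7 to 28.3 and 7 of the VTA libraries at -54.0 to -45.9. The library labelled VTA replicate 2 lay at -18.9, between the other VTA libraries and the shell. On the second component the libraries labelled VTA replicates 1 and 2 lay at 24.8 and 39.6, and all other libraries of the 3 regions at -11.2 to 4.13. The main counts and the values of named genes are therefore also given without VTA replicate 2, and counts with no such value rest on all 8 VTA libraries. The table holds Ensembl gene IDs with no gene names, so cell type markers were not used here and the region labels were checked only by how the libraries grouped.

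More than 1 gene in 2 differed between the shell and the VTA, in nearly equal numbers each way, and most of the differences were small. Of 16289 genes tested, 9474 (58.2%) passed an adjusted p of 0.05 (edgeR's quasi-likelihood test with the rat as a block and Benjamini-Hochberg adjustment). Expression was higher in the shell for 4788 genes (29.4%) and higher in the VTA for 4686 (28.8%). Without VTA replicate 2 these numbers were 4816 and 5204, and with scaling to total counts alone they were 5083 and 4451. Both splits are less even, and they lean in opposite directions. A difference of at least 2-fold was seen for 2381 of the genes called (14.6% of those tested), of which 1119 (6.87%) were higher in the shell and 1262 (7.75%) higher in the VTA. The other 7093, or 74.9% of the genes called, differed by less than 2-fold, and the median size over all genes called was 0.564 on the log2 scale. At least 16-fold differences were found for 62 genes higher in the shell and 73 higher in the VTA. In tissue samples, fewer cells of a type and less RNA per cell cannot be told apart.

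**Figure D1:**
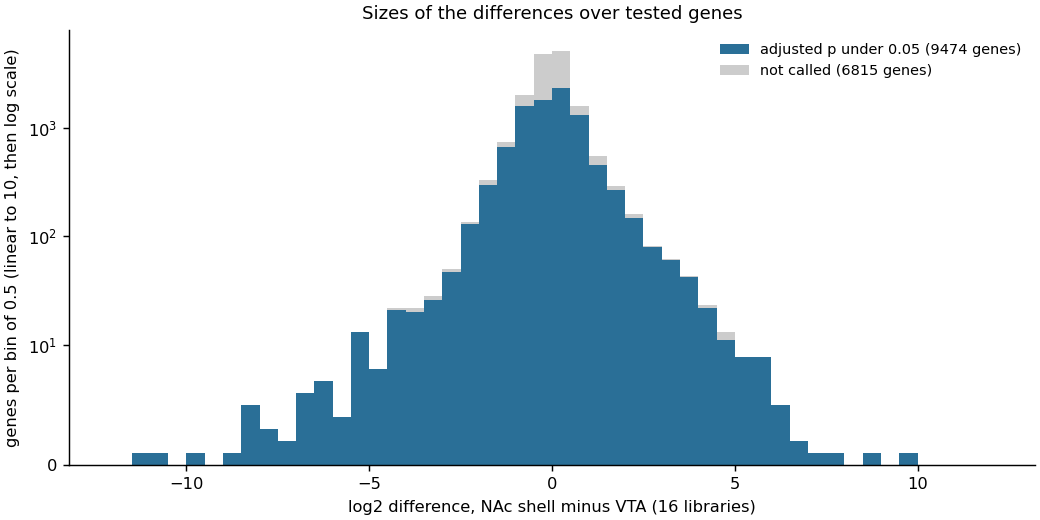
The number of tested genes (vertical axis, linear to 10 and then on a log scale) by the log2 difference of NAc shell minus VTA (horizontal axis, in bins of 0.5), with genes called in blue and genes not called in grey. The 9474 genes called reach about equally to both sides of 0, and the genes not called lie mostly within 1 log2 unit of 0.

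The calls held in single animals to different degrees. For 6344 genes the call was accompanied by a difference of the same sign in all 8 rats. The ranges of the 8 shell and 8 VTA libraries did not overlap for 3962 genes (24.3%), and for 5404 (33.2%) when VTA replicate 2 was left out. Without that library 10020 genes were called, of which 9115 were also called in the same direction with it. Within single rats, the genes at least 2-fold higher in the shell numbered 1289 to 1875, and those at least 2-fold higher in the VTA 1158 to 2245. Both lowest numbers came from rat 2.

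Expression level changed how much could be seen. When the tested genes were divided into 3 equal bins of mean CPM (counts scaled to library size), 41.7% of the lowest bin, 61% of the middle bin and 71.8% of the highest bin were called. Calls with a difference of at least 2-fold made up 23.7% of the lowest bin, 10.6% of the middle bin and 9.52% of the highest. The standard error (SE) given with edgeR differences is their size divided by the square root of the test's F statistic. Its median over the genes of the bin was 0.278 in the lowest bin and 0.0647 in the highest. Genes higher in the VTA outnumbered those higher in the shell in the lowest bin (1434 against 832), while the highest bin held more genes higher in the shell (2290 against 1608). Small differences were thus measurable mainly in well expressed genes.

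Presence in one region with near absence from the other was rare. A gene was counted as near absent when no library of the region had more than 3 counts. Only 2 genes were near absent from all shell libraries while their mean in the VTA was at least 10 CPM, and both were near absent from the core too. In the opposite direction 1 gene was found, or 3 when VTA replicate 2 was left out.

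Genes were eligible when called both with all 16 libraries and without VTA replicate 2, with the same sign in all 8 rats. They also needed a mean of at least 10 CPM in the higher region. The 2 with the largest log2 difference in each direction are given by ID, and what they encode was not looked up. ENSRNOG00000028348 had 7.94 CPM in the lowest shell library, a median of 21.4 and 33.7 in the highest. In the VTA it had 0 CPM at the lowest and at the median, and 0.0979 at the highest. Every shell library stood above every VTA library. The gene had 3286 counts over the shell libraries and 3 over the VTA libraries, a ratio of 1119 after scaling for depth (exact 95% interval 382 to 5427, which covers counting error only). Its fitted log2 difference was 9.73 ± 0.37 (SE, n = 8 rats, adjusted p = 3.15e-08 by edgeR's quasi-likelihood test), a size that depends on the prior count, since the VTA was close to 0. With 3 VTA counts, this SE is smaller than the counting interval would imply and does not give the full uncertainty. The log2 difference was 9.69 without VTA replicate 2, which held 0 counts of the gene, and 10.59 without rat 13, whose VTA library held 2 of the 3 counts. The core lay lower than the shell, at 6.58 to 11.1 CPM, and the log2 difference of shell over core was 1.04 ± 0.19 (SE, adjusted p = 0.00196 by the same edgeR test, higher in the shell in 7 of 8 rats).

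The second gene higher in the shell, a rank that rests on the fit with all 16 libraries and the rat as a block, was far more uneven between animals. ENSRNOG00000046177 ranged from 9.78 to 197 CPM in the shell around a median of 131, with low values in replicates 15 (9.78), 11 (11.5) and 16 (42.2). It had 0 counts in 7 VTA libraries and 1157 counts, or 64.4 CPM, in the library labelled VTA replicate 2. That library stood above the 3 low shell libraries, so the groups overlapped through it alone. The fitted log2 difference was 7.70 ± 1.19 (SE, n = 8 rats, adjusted p = 0.000251 by edgeR's quasi-likelihood test), and 3.69 with no replicate block. The call was lost in cross A alone (5.54, adjusted p = 0.0607 by edgeR) and in rats injected with nicotine alone (7.36, adjusted p = 0.0532 by edgeR). Without VTA replicate 2 the fitted value was 13.92, which depends on the prior count because the other 7 VTA libraries held 0 counts. Over all 8 VTA libraries the ratio after scaling for depth was 15.0 (exact 95% interval 14.1 to 15.9), with all 1157 VTA counts from VTA replicate 2. For the other 7 libraries, a total of 0 allows up to about 3 counts (a one-sided 95% limit), and measured against it the shell was at least 5173-fold higher. For those 7 libraries the exact two-sided 95% interval used for the other genes starts lower, at 4207. All these limits cover counting error only. In the core the gene was also uneven, at 7.74 CPM in replicate 3 and up to 170 CPM elsewhere around a median of 102.

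Of the genes higher in the VTA, ENSRNOG00000017302 had the largest difference. It reached 1312 CPM in the VTA with a median of 974, and its lowest VTA value, 20.9 CPM, came from replicate 2, whereas the other 7 libraries lay at 703 or above. In the shell it had 0.137 CPM at the lowest, 0.386 at the median and 0.804 at the highest, or 3 to 16 counts per library. Even the lowest VTA library was far above the highest shell library. The fitted log2 difference was -11.02 ± 0.36 (SE, n = 8 rats, adjusted p = 1.64e-08 by edgeR's quasi-likelihood test) and -11.22 without VTA replicate 2, and its range over the alternatives was -11.6 to -10.4. Core values were as low as those of the shell, from 0 to 0.548 CPM.

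ENSRNOG00000012283 had the same form at a lower level. In the VTA it had 2.56 CPM in replicate 2, a median of 72.0 and 103 at the highest, and the 7 libraries other than replicate 2 lay at 50.6 or above. In the shell it had 0 CPM at the lowest and at the median, and 0.201 at the highest. The shell libraries together held 6 counts and the VTA libraries 11436, a depth-scaled ratio of 1866 in favour of the VTA (exact 95% interval 857 to 5086, which covers counting error only). The fitted log2 difference was -10.61 ± 0.35 (SE, n = 8 rats, adjusted p = 1.64e-08 by edgeR's quasi-likelihood test) and -10.88 without VTA replicate 2. This size also depends on the prior count, since the shell was close to 0, and its SE is again smaller than the counting interval would imply. Shell replicate 4 held 4 of the 6 shell counts, and the value was -11.65 without rat 4, -9.52 in rats injected with nicotine alone and -12.20 in rats injected with saline alone. The core had 1 count over its 8 libraries. All 4 genes differed in the same direction in all 8 rats, which was a condition of their choice.

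**Figure D2:**
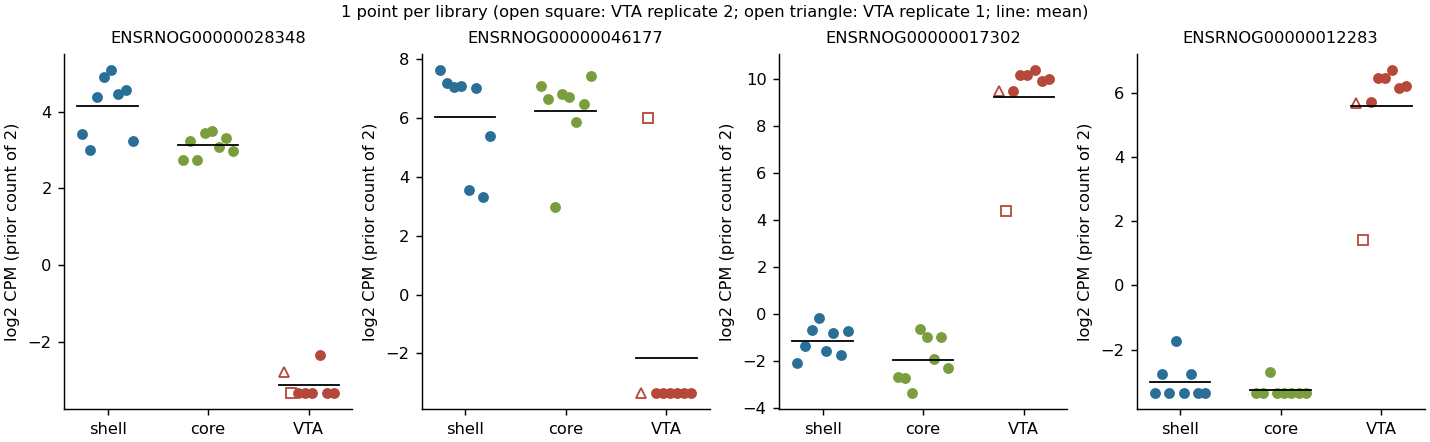
Log2 CPM with a prior count of 2 (vertical axis) of the 4 genes given by ID in each library of the shell, core and VTA (horizontal axis), with 1 point per library and a line at the mean of each region. VTA replicate 2 (open square) is the only VTA library with counts of ENSRNOG00000046177, at 64.4 CPM, and the lowest VTA library for ENSRNOG00000017302 and ENSRNOG00000012283, at 20.9 and 2.56 CPM.

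The 15 genes with the largest differences in each direction were then followed as sets. They were chosen by these differences, under the same conditions as the genes given by ID, so their sizes and shared direction are descriptions. In the set higher in the shell, the log2 differences ran from 4.68 to 9.73 with a median of 5.12, and without VTA replicate 2 the median was 5.32. In the set higher in the VTA they ran from -11.0 to -4.85 with a median of -6.62, and without VTA replicate 2 the median was -6.82. Over all genes tested the median was -0.005. The shell and VTA ranges did not overlap for 14 of 15 genes in each set, and for 15 of 15 in each once VTA replicate 2 was left out, beside the 24.3% and 33.2% of all genes given above.

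The leading genes were also followed in the core. Core and VTA differed in the same edgeR test for all 15 genes of both sets, where 9734 of all genes tested (59.8%) were called, 30.4% higher in the core and 29.3% higher in the VTA (10118 called without VTA replicate 2). Between shell and core, where 2724 of all genes (16.7%) were called, 6 of the 15 genes higher in the shell than in the VTA were higher in the shell than in the core, 5 were higher in the core and 4 were not called. Of the 15 genes higher in the VTA, 3 were higher in the shell than in the core, 0 were higher in the core and 12 were not called. On average these 15 genes were low in both parts, with a mean log2 CPM of -1.46 to -0.726 in the shell and -2.06 to -1.34 in the core. Their log2 differences of shell over core ran from -0.376 to 2.23 with a median of 0.664, so genes not called are not shown to be alike. The contrasts share libraries, so these counts are not independent of each other.

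Both sets pointed the same way in every rat by the choice of their genes, but the distance was shorter in rat 2. The mean log2 CPM of the 15 genes higher in the shell was 5.74 to 6.20 in the shell libraries, -0.199 to 0.652 in 7 VTA libraries and 2.10 in VTA replicate 2. The mean of the 15 genes higher in the VTA was -1.46 to -0.726 in the shell, 4.99 to 5.75 in 7 VTA libraries and 2.29 in VTA replicate 2. The difference of shell over VTA for the first set was 3.79 log2 units in rat 2 and 5.36 to 6.24 in the other rats, and for the second set -3.57 in rat 2 and -6.97 to -6.34 in the others. In the first set VTA replicate 2 was the highest VTA library for 7 of 15 genes and the lowest for 2, with a median of 200% of the mean level of the other 7. In the second set it was the lowest VTA library for 13 of 15 genes and had a median of 7.52% of the mean level of the other 7. VTA replicate 2 was nearer to the shell than the other VTA libraries were in the means of both sets, yet still nearer to those libraries than to the shell. By the labels, VTA replicates 2 and 16 came from a preparation batch that held no other library, and in replicate 16 the means of the sets were 0.431 and 5.45. The part of the batch in the position of VTA replicate 2 was not tested.

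**Figure D3:**
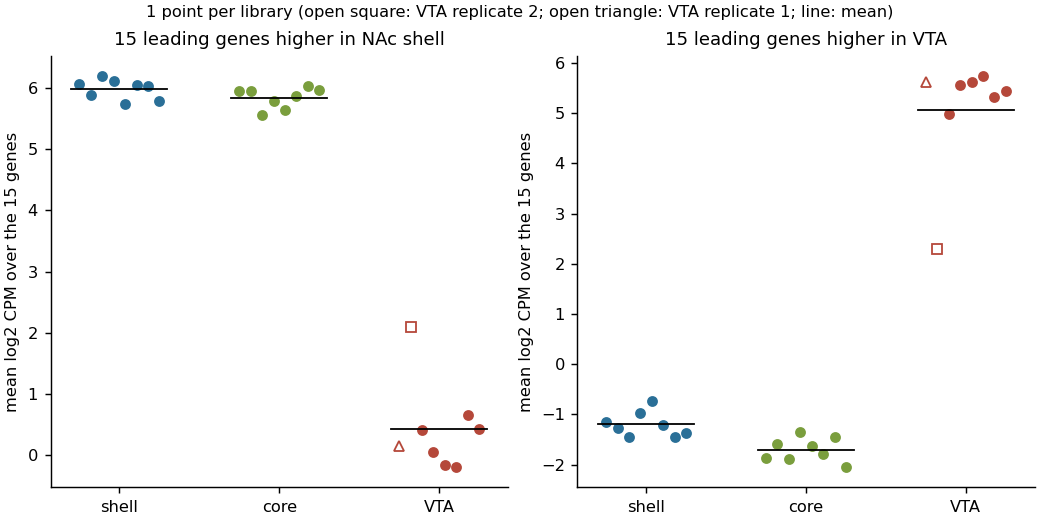
Mean log2 CPM over the 15 leading genes of each direction (vertical axes) in each library of the shell, core and VTA (horizontal axes), with 1 point per library and a line at the mean of each region. VTA replicate 2 (open square) lies at 2.10 in the left panel and at 2.29 in the right panel, between the other VTA libraries and both NAc regions.

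The shell was compared with the core to see which of them lay nearer to the VTA. Of the 2724 genes called between shell and core, 1292 (7.93% of those tested) were higher in the shell and 1432 (8.79%) higher in the core.

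Genes were then chosen by setting the VTA against the mean of core and shell, in which both parts of the NAc weigh the same, where 10963 genes were called (67.3%), 34.3% higher in the VTA and 33% higher in the NAc (11363 called without VTA replicate 2). At least 2-fold differences were found for 2585 of them, 1434 higher in the VTA and 1151 higher in the NAc. A gene could pass through 1 part of the NAc alone, so that a large difference between shell and core could itself help a gene into this set, and the counts that follow are descriptions. Among these 2585 genes the shell differed from the core toward the VTA for 511 (19.8%) and away from it for 161 (6.23%). Without VTA replicate 2 these counts were 574 and 174. The split was 176 (12.3%) against 57 (3.97%) for genes higher in the VTA, and 335 (29.1%) against 104 (9.04%) for genes higher in the NAc. In all 8 rats the direction was the same for 353 of the 511 and 102 of the 161. A difference between shell and core of at least 2-fold was reached by 103 and 47 genes. Most of the shift of the shell was therefore of less than 2-fold.

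**Figure D4:**
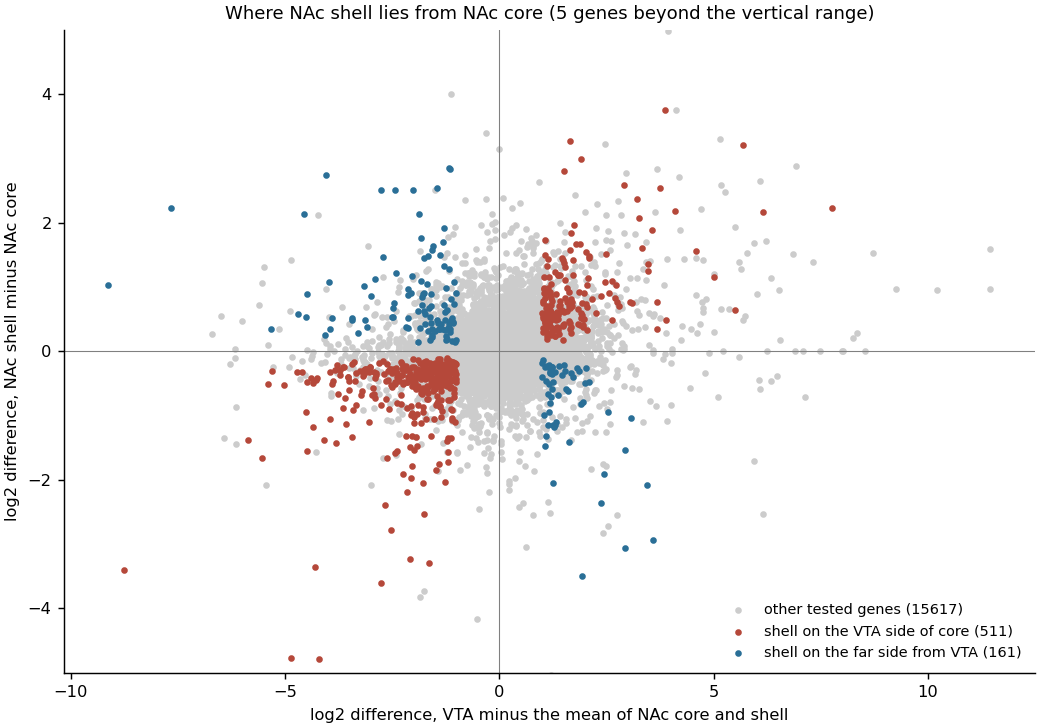
The log2 difference of NAc shell minus NAc core (vertical axis) against that of VTA minus the mean of both NAc regions (horizontal axis), 1 point per tested gene, with 5 genes outside the vertical range. Red marks the 511 genes that differ at least 2-fold on the horizontal axis and whose shell level is called different from the core toward the VTA, and blue the 161 whose shell level is called different away from it.

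The size of the shift was small and differed between rats. The median log2 difference of shell over core was 0.123 for the genes higher in the VTA and -0.120 for those higher in the NAc, beside 0.008 over all genes tested. Over the 1434 genes higher in the VTA, the mean log2 CPM was 1.08 to 1.46 in the core, 1.21 to 1.54 in the shell, 2.88 to 3.14 in 7 VTA libraries and 2.38 in VTA replicate 2. Each rat's shell and core were set against the mean of the 8 VTA libraries, not against that rat's own VTA. The shell thus stood 9.47% ± 8.68 (SD, n = 8 rats) of the way from core to VTA (10.0% without VTA replicate 2). Its range was -2.54% to 20.2%, and it was on the VTA side in 7 rats. Over the 1151 genes higher in the NAc, the mean was 3.61 to 3.79 in the core, 3.48 to 3.68 in the shell, 1.57 to 1.95 in 7 VTA libraries and 2.61 in VTA replicate 2. There the shell stood 6.65% ± 2.69 (SD, n = 8 rats) of the way, with a range of 2.44% to 11.4%, on the VTA side in all 8 rats (6.14% without VTA replicate 2). A rat's shell was nearer than its core to the mean of the 8 VTA libraries for 56.1% of the first set on average (41.9% to 71.8%). For the second set this was 61.0% (56.6% to 65.8%). In the first set most genes were nearer in 5 rats and in the second in 8.

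**Figure D5:**
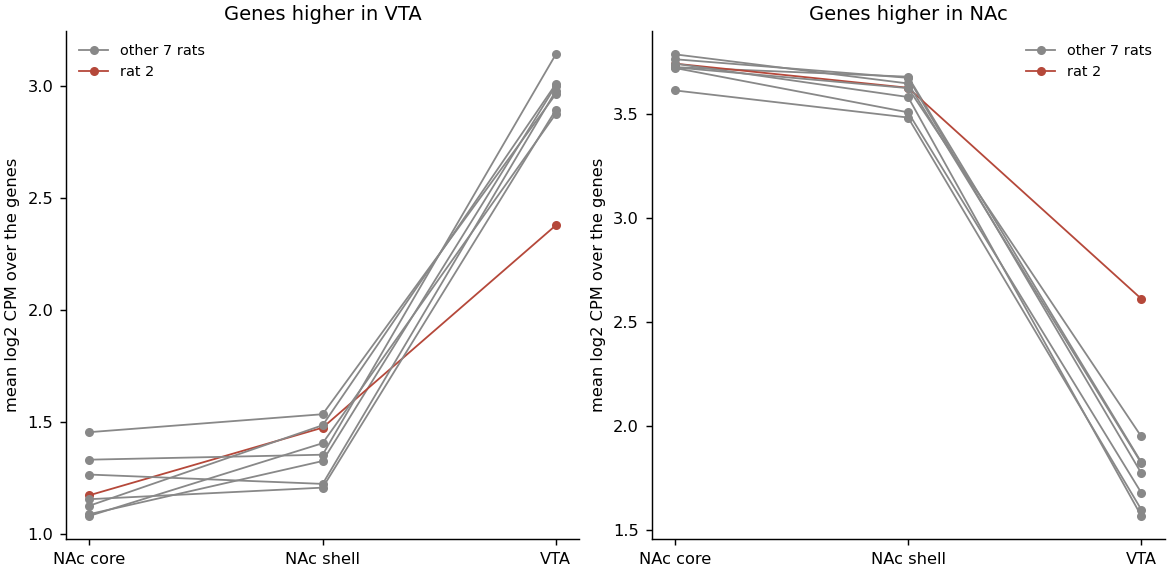
Mean log2 CPM (vertical axes) in NAc core, NAc shell and VTA (horizontal axes) over the 1434 genes higher in the VTA (left) and the 1151 genes higher in the NAc (right), with 1 line per rat and rat 2 in red. The shell lies on the VTA side of the core in 7 of 8 rats on the left and in 8 of 8 on the right, and the VTA point of rat 2 lies apart at 2.38 and 2.61.

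The individual genes with the largest shift did not form a single pattern. Of the 10 genes ranked first for a shell level displaced toward the VTA, 5 were higher in the VTA and 5 in the NAc, with log2 differences of shell over core from -3.61 to 2.55, and 9 had the same sign in all 8 rats. Between core and VTA 10 of them were called, beside 59.8% of all genes tested. Between shell and VTA 7 were called (6 without VTA replicate 2, and 8 without VTA replicates 1 and 2), beside 58.2%, which is near the share over all genes. VTA replicate 2 was the lowest VTA library for 7 of the 10 and the highest for 1, and VTA replicate 1 was the highest for 5. Of the 5 genes ranked first for a displacement away from the VTA, 2 were higher in the VTA and 3 in the NAc, with log2 differences of shell over core from -2.08 to 2.86, and all 5 had the same sign in all 8 rats. Between shell and VTA 5 of them were called and between core and VTA 2, beside the same 58.2% and 59.8% of all genes, and nothing is read from counts this small. These genes were ranked by the values given here, which carry no test.

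Whether the difference between shell and VTA depended on the cross or on the early injection was tested over the same 16 libraries. No gene passed by cross (0%, edgeR's quasi-likelihood test of the interaction, smallest adjusted p = 0.645), with 866 genes (5.32%) at an unadjusted p under 0.05, where 814 of 16289 would be so with no difference, and DESeq2 called 4. No gene passed by injection (0%, smallest adjusted p = 0.486), with 264 genes (1.62%) at an unadjusted p under 0.05, and DESeq2 called 1. Without VTA replicate 2 edgeR called 2 genes by injection, with 463 (2.84%) at an unadjusted p under 0.05. Neither count by injection reached the 814. With 4 rats on each side these counts do not show that the regions differed alike. The injection cannot be told apart from the preparation batches, in which rats injected with nicotine and with saline were handled separately except for 2 VTA libraries. Among rats injected with nicotine no batch held both crosses, so there the cross cannot be told apart from the batch either.

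The 2 genes called by injection without VTA replicate 2 are given by ID because they were singled out after their values were seen. ENSRNOG00000045653 had 71.7 to 131 CPM in the shell of rats injected with nicotine and 156 to 232 in the shell of those injected with saline. In the VTA it had 69.1 to 87.3 CPM after nicotine, apart from 206 CPM in replicate 2, and 62.7 to 82.6 after saline. The log2 difference of shell over VTA was lower after nicotine by an interaction of -1.33 ± 0.13 (SE, adjusted p = 0.0341 by edgeR's quasi-likelihood test over 15 libraries), and over 16 libraries the adjusted p was 0.486. ENSRNOG00000058209 had 14.3 to 22.5 CPM in the shell after nicotine and 6.55 to 20.3 after saline, ranges that overlap. In the VTA it had 5.42 to 10.1 CPM after nicotine, apart from 53.1 in replicate 2, and 10.3 to 32.5 after saline. Its interaction was 1.75 ± 0.18 (SE, adjusted p = 0.0341 by edgeR's test over 15 libraries), and over 16 libraries the adjusted p was 1. In both genes VTA replicate 2 was the highest VTA library, and with VTA replicates 1 and 2 both left out 0 genes were called by injection.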

How the data were processed

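The authors trimmed paired reads with fastp 0.20.0, quantified them with salmon 0.12.0 against the rat genome Rnor 6 and deposited estimated counts per Ensembl gene, rounded to whole numbers and not normalized, for 17323 genes; the study tested them with DESeq2. Salmon divides reads shared by similar transcripts by estimation, so near-identical genes can exchange counts. Genes with a normalized count over 10 in at least 3 of 24 libraries were tested (16289, with 99.98% of counts; 1034 left out). The test was edgeR 4.0.16 (R 4.3.3) with quasi-likelihood, TMM normalization and the rat as a block, two-sided, with Benjamini-Hochberg adjustment over all tested genes. The deposited table and the reference gene table pair 0 of the IDs with names, so gene symbols, the planned gene lists and marker checks, positions and sequences were not used here. The planned rules for named genes needed symbols, apart from the one for IDs. It took the 2 per direction with the largest log2 difference and at least 10 CPM in the higher region. They had to be called with all 16 libraries and without VTA replicate 2, with the same sign in all 8 rats. The ranked sets of 15, 10 and 5 genes follow those rules without the symbol condition, a change made after the data were seen. Members, lists and tests were chosen with earlier results of these data known. The pairing rests on regions sharing a rat; deviations from region means of shell and VTA libraries of 1 rat correlated at -0.075 to 0.130, over 0.1 in 1 of 8 rats. Scripts were tested on simulated data. Alternatives were DESeq2 1.42.0, other normalizations and filters, 24 libraries, no block, libraries or rats left out, crosses or injections alone, and rats with both regions in the same batch.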

Additional observations from a re-analysis of the deposited data

Results flagged for a closer look

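Values were set apart when, among the 8 libraries of a region, the gap of 1 library to its nearest neighbour exceeded Dixon's 95% critical value as a share of the whole range. Of 22 groups of values examined, 8 held such a library, and 6 of the 8 were VTA replicate 2. For independent groups of normal values chance gives about 1.1, but these groups share libraries and genes, some genes were chosen for large differences, and some values are near 0, so the number is no test. Its first principal component was -18.9 against -54.0 to -45.9 in the other VTA libraries. It had 691 genes at least 4-fold from the median of the other VTA libraries, against 80 to 311 in those. Its mean log2 CPM of the 15 leading genes higher in the shell was 2.10 against -0.199 to 0.652, and of the 15 leading genes higher in the VTA 2.29 against 4.99 to 5.75. It had 64.4 CPM of ENSRNOG00000046177, where the other VTA libraries had 0, and 20.9 CPM of ENSRNOG00000017302, where the others had 703 to 1312. The cause was not tested. The other 2 values rest on a few counts: ENSRNOG00000012283 had 0.201 CPM in shell replicate 4 against 0 to 0.0484 in the other shell libraries, and ENSRNOG00000028348 had 0.0979 CPM in VTA replicate 13 against 0 to 0.0445 in the other VTA libraries.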

How the results depend on the processing

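The count of 9474 genes called between shell and VTA became 9746 with no replicate block, 9605 with DESeq2, 10020 without VTA replicate 2 and 8520 to 10024 when each rat was left out. It was 9630 in the rats whose shell and VTA libraries shared a preparation batch, which leaves out rats 2 and 16. It was 8220 in cross B alone and 8424 in rats injected with saline, but 4326 in cross A alone (2027 higher in the shell, 2299 in the VTA) and 4129 in rats injected with nicotine alone (2089 and 2040), sets of 4 rats that include rat 2; its part in these was not tested. When the difference of VTA from the NAc had to be at least 4-fold, the genes with the shell toward the VTA numbered 174 and away from it 47, by construction from fewer genes. The shell's position stayed within 7.15% to 11.7% for genes higher in the VTA and 4.42% to 7.88% for those higher in the NAc. By cross DESeq2 called 4 genes and by injection 1, where edgeR called 0; by injection edgeR called 2 without VTA replicate 2 and 2 without replicate 2. Of 88 values of the 4 genes given by ID under alternatives, 86 kept direction and call. The genes were chosen as called without VTA replicate 2 and of the same sign in all rats, so this count is a description. ENSRNOG00000046177 lost its call in cross A alone (5.54, adjusted p = 0.0607 by edgeR) and in rats injected with nicotine alone (7.36, adjusted p = 0.0532 by edgeR). Its log2 difference ranged from 3.69 to 14.2. Leaving out VTA replicates 1 and 2 together was chosen after seeing the data. Depth limits the lowest expressed genes.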
